A study of Mus musculus with 8 samples.

Results

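Polycystic kidney and liver disease is caused by mutations in a small group of genes, and 9 of them were followed here through an inducible mouse model of Pkd2 loss. They are Pkd1 and Pkd2, which encode polycystin-1 and polycystin-2, Pkhd1, which encodes fibrocystin, the endoplasmic reticulum (ER) genes Ganab, Prkcsh, Sec63 and Dnajb11, the cilium gene Dzip1l and the RNA-binding protein gene Bicc1. They were chosen by symbol, as genes mutated in polycystic disease or, for Bicc1, in cystic kidneys. No measured value enters the rule, but the choice was made with earlier results of these data known. All 9 were found among the 24063 gene symbols of the count tables.

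RNA sequencing was performed on tubuloids. These resemble tubules and were cultured in Matrigel from collagenase-digested fragments of postnatal mouse kidney and differentiated with growth factors. The labels gave a kidney age of postnatal day 7 to 10, and the methods of the study a somewhat younger range. Every library carried the genotype Pkd2fl/fl Pax8rtTA TetOCre mTmG, so both groups shared the floxed Pkd2 alleles, the transactivator, the Cre transgene and the mTmG reporter, which turns from red to green after recombination. Doxycycline (DOX, n = 4 libraries) lets the transactivator, driven by the Pax8 promoter, switch on Cre, and dimethyl sulfoxide (DMSO, n = 4 libraries) was the vehicle; treatment started on day 3 of culture, lasted 3 days, and RNA was taken on day 7. Because Pax8 is active in renal epithelium, cells of other types in the cultures would keep their floxed Pkd2. There was no group without the transactivator or Cre, so an effect of doxycycline itself and of Cre cannot be told apart from loss of Pkd2.

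Polycystin-1, a large membrane receptor-like protein, and polycystin-2, a cation channel of the TRP family, form a complex that reaches the primary cilium of tubule cells, and loss of either causes autosomal dominant polycystic kidney disease. Fibrocystin, a membrane protein of cilia, is lost in the autosomal recessive form. The large polycystin and fibrocystin proteins are folded and glycosylated in the ER: glucosidase II, made of the catalytic subunit Ganab and the regulatory subunit Prkcsh, trims glucose from their glycans, Sec63 helps to move new proteins through the translocon, and Dnajb11 is a cochaperone of the ER chaperone BiP. Mutations in Prkcsh and Sec63 give mainly liver cysts, and those in Ganab and Dnajb11 kidney or liver cysts.

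The promoters of 8 of the 9 genes were present in the RefSeq promoter table (GRCm38.p6), and that of Dnajb11, the only member whose groups did not overlap, is printed. The motifs were chosen after the values were seen, and no link between a motif and the counts was tested. The Dnajb11 promoter (chr16:22857595-22857874, plus strand) runs from 250 bases before to 30 bases after the transcript start. Its capitals mark a match to ERSE-II, an element of promoters that respond to unfolded protein in the ER. The match began 7 bases after the transcript start, and matches to this motif were found in 12 of 32851 promoter windows of that table (0.0365%).
Dnajb11: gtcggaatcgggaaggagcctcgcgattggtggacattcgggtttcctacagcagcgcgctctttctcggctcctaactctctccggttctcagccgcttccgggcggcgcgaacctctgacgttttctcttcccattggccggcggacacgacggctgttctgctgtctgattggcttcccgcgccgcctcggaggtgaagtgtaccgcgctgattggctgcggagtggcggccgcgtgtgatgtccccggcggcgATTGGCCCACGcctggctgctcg
The other 7 members with a promoter sequence did not hold this motif. The longer ER stress element ERSE, present in 39 windows (0.119%), was found in no member. Each motif was searched on both strands, and a match describes letters only; it does not show that a factor binds there.

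Counts summed over transcripts ranged from 63922677 to 102716313 per library. Libraries are named by their group and number in the labels. In DMSO 20 and DOX 19 only 13243 and 13599 genes had a count, against 17054 to 17903 in the other 6 libraries, so the fold changes of the members are also given without them. Of the marker genes, 6 epithelial genes (Epcam, Cdh1, Krt8, Krt18, Krt19 and Cldn4) summed to 628 to 2643 TPM (deposited transcript abundance, scaled to a fixed sum per library) in DMSO and 796 to 1713 in DOX libraries. By the same sum, 7 stromal genes had 298 to 3735 TPM in DMSO and 644 to 1019 in DOX libraries, with the extremes in DMSO 5 and DMSO 15. Both epithelial and stromal markers were thus present in every library. The collecting duct water channel Aqp2 stayed under 1 TPM in all 8 libraries. Proximal tubule markers Lrp2, Cubn and Slc34a1, and endothelial markers Pecam1, Cdh5 and Kdr, were also under 1 TPM in all libraries. The proximal list's remaining gene, the glucose transporter gene Slc5a2, had 5.17 to 23.7 TPM, and 597 of its exonic bases are shared with BC017158 on the opposite strand.

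No member passed the test between DOX and DMSO libraries. The call needed 1.5-fold or more and an adjusted p (DESeq2 Wald test) not above 0.05. Of 17011 genes with an adjusted p, 25 were called (0.147%), 14 of them higher (0.0823%) and 11 lower (0.0647%) in DOX. The edgeR quasi-likelihood test called none of 15562 genes (0%), members included, although 476 had an unadjusted p under 0.05 (3.06%). At an unadjusted DESeq2 p under 0.05, 1 member was higher (Dnajb11) and 1 was lower (Bicc1) in DOX, against 2.2% and 2.47% of 19268 genes tested (4.67% in either direction). The median log2 fold change was 0.17 over the 9 members and -0.07 over all genes tested. Dnajb11 was the only member in which the groups did not overlap, and 2.45% of all genes tested did not overlap. In bulk RNA, fewer cells of a type and less RNA per cell cannot be told apart, for these and all values given here.

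**Figure D1:**
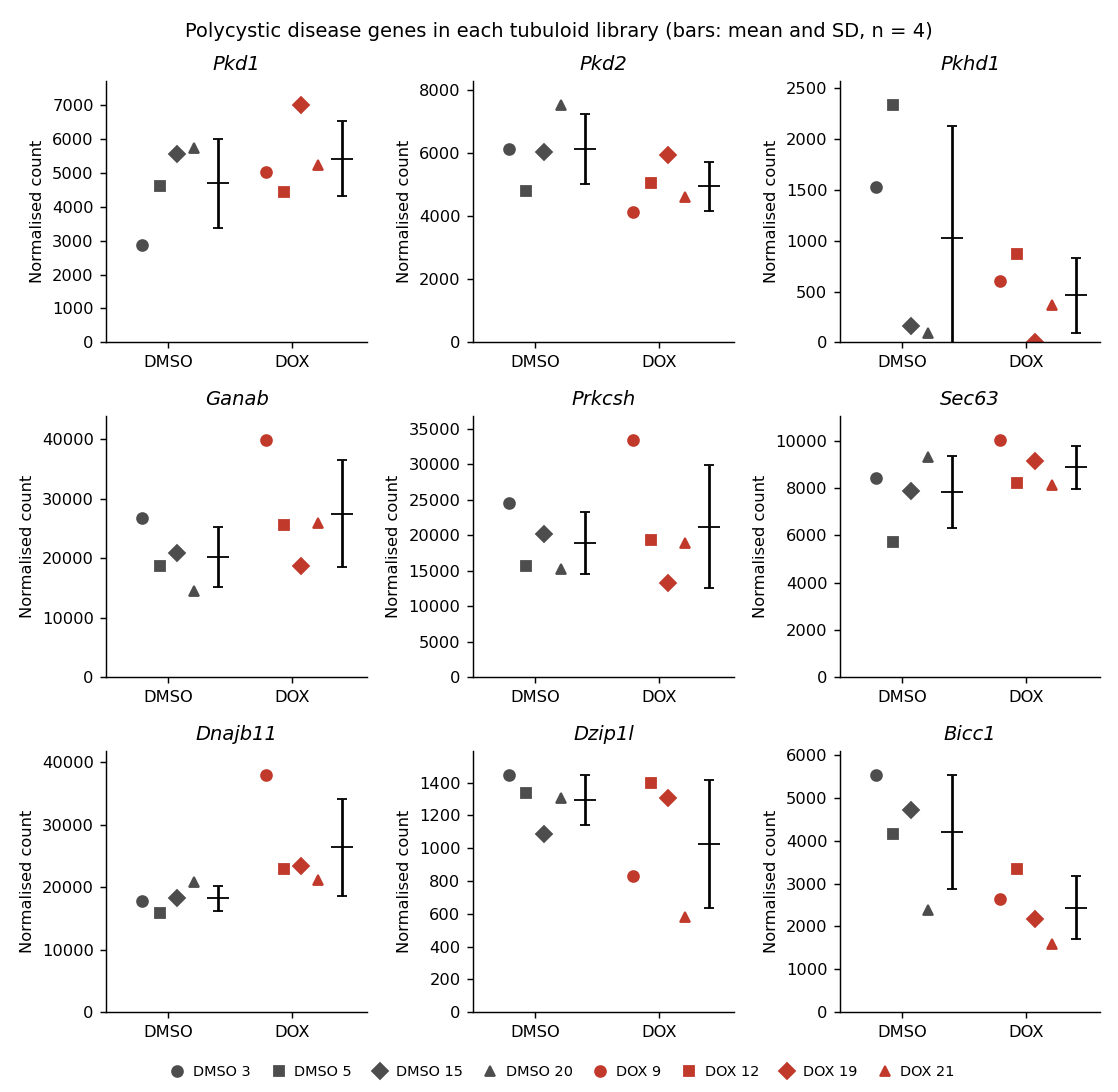
Normalised counts (y axis, linear, from 0; counts divided by DESeq2 size factors) of the 9 genes in each library, with DMSO in grey, DOX in red, and the mean and SD (n = 4) beside each group; the lower SD bar of Pkhd1 in DMSO runs below 0 and is not drawn there. Dnajb11 is the only gene whose DOX libraries, from 21130 up, all lie above the DMSO libraries, which reach 20804, and Pkhd1 spans 0 to 2336.

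Pkd2, the gene targeted by the floxed alleles, lies on chromosome 5 from 104453982 to 104505819 (GRCm38). The question was whether its RNA differed once Cre had been induced. Its normalised counts (counts divided by the size factor of the library) were 6128, 4813, 6039 and 7538 in DMSO 3, 5, 15 and 20. In DOX 9, 12, 19 and 21 they were 4136, 5072, 5952 and 4624. A pair of DOX libraries, DOX 9 and DOX 21, lay below every DMSO library, and the other two lay within the DMSO range. The log2 fold change of -0.31 (SE 0.215) had a 95% interval from -0.73 to 0.11, which as a fold runs from 0.603 to 1.08 (DESeq2 adjusted p = 0.999; exact two-sided permutation p = 0.143). A reduction of over 39.7% in the mean therefore lay outside the interval. Without DMSO 20 and DOX 19 the log2 fold change was -0.28. The deposited count covers the whole transcript of 5212 bases, so that reads from deleted and retained exons were not separated. RNA from cells that do not express Pax8 is included. The paper reported a significant fall of polycystin-2 protein in tubuloids after doxycycline. Some protein remained, and red cells, presumably wild type, were seen in differentiated structures. Pkd2 RNA of epithelial cells without recombination would thus also be in the count. In level, Pkd2 had 27.8 ± 6.14 TPM in DMSO and 23.8 ± 4.34 TPM in DOX (SD, n = 4 each).

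Pkd1 (chromosome 17, 24548689 to 24596514) was not targeted, and asked whether the partner of polycystin-2 moved with it. Its normalised counts were 2877, 4609, 5558 and 5731 in DMSO 3, 5, 15 and 20, and 5015, 4427, 7009 and 5225 in DOX 9, 12, 19 and 21. DMSO 3 was the lowest and DOX 19 the highest library, and the remaining values of both groups were mixed. DOX differed from DMSO by a log2 value of 0.21 (SE 0.294; 95% interval -0.37 to 0.78; DESeq2 adjusted p = 0.999; exact permutation p = 0.514), while it was 0.03 without DMSO 3 and 0.19 without DMSO 20 and DOX 19. Of the 17415 annotated exonic bases of Pkd1, 693 overlap exons of Tsc2 on the opposite strand, and the library kit does not mark strand, so reads there could come from either gene.

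By TPM, which divides by transcript length, Pkd1 was lower than Pkd2 in all 8 libraries. The Pkd1 transcript has 14170 bases and that of Pkd2 5212. Whether long transcripts were recovered as well as short ones was not tested, and reads shared with Tsc2 could enter the Pkd1 values. The ratio of Pkd1 TPM to Pkd2 TPM was 0.173, 0.352, 0.339 and 0.280 in DMSO 3, 5, 15 and 20. In DOX 9, 12, 19 and 21 it was 0.446, 0.321, 0.433 and 0.416. Thus 3 DOX libraries lay above all DMSO libraries and DOX 12 lay within their range, with means of 0.286 ± 0.0817 in DMSO and 0.404 ± 0.0566 in DOX (SD, n = 4 each). This ratio was compared without a test; the mean log2 difference of 0.54 ranged from 0.32 to 0.66 when each library was left out in turn, lowest without DMSO 3.

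Some relatives of the polycystins were also read. Of 6 listed family genes, Pkd1l1 was not in the count tables and Pkdrej had 0 counts in every library. Pkd1l2 and Pkd2l1 never exceeded 7 and 5 counts in a library. Pkd1l3 had a log2 fold change of 0.28 and 4.36 to 9.02 TPM, and Pkd2l2 one of -0.52 and 3.64 to 13.9 TPM, with adjusted p = 0.999 by DESeq2 for both. Their mean levels of 6.94 ± 1.61 and 7.46 ± 3.67 TPM (SD, n = 8) stood near that of Pkd1. These are the only family members with a mean normalised count of at least 100, and part of their exons lies under other genes on the opposite strand (190 bases shared with Ist1 and 631 with Fam13b). Over the 4 family genes tested, 1 fold change was positive and 3 were negative, and none was called.

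Pkhd1 (chromosome 1, 20057779 to 20618082), the fibrocystin gene, was the lowest and by far the most variable member. Normalised counts were 1533, 2336, 158 and 92.2 in DMSO 3, 5, 15 and 20. They were 604, 870, 0 and 371 in DOX 9, 12, 19 and 21. Both groups held low and high libraries, and DOX 19 had no count at all among 75138237, which allows a level of up to 0.00612 TPM (3 counts; counting error only). Its fold change of -1.16 (log2) had an SE of 1.43, and the 95% interval ran from -3.96 to 1.65, or 0.0641-fold to 3.13-fold (DESeq2 adjusted p = 0.999; exact permutation p = 0.600). The interval holds changes of either sign and of large size. Without DMSO 20 and DOX 19 the log2 fold change was -1.09 (DESeq2 adjusted p = 0.889), and without DMSO 5 it was -0.36. The SD of log2 values over the 8 libraries exceeded that of 95.5% of all 13248 genes with a mean normalised count of at least 100, including genes for which DESeq2 gave no p-value. Reads of Pkhd1 could partly come from an antisense gene, 4930486I03Rik, which shares 208 of its 14310 exonic bases.

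Per transcript length, Pkhd1 stood at 2.52, 4.88, 0.257 and 0.183 TPM in DMSO 3, 5, 15 and 20, and at 1.12, 1.95, 0 and 0.688 TPM in DOX 9, 12, 19 and 21. DMSO 5 and DMSO 3, the highest pair for Pkhd1, were also the pair with the highest epithelial sums (2055 and 2643 TPM). The next library did not follow this order, since DOX 12 had more Pkhd1 than DOX 9 (1.95 against 1.12 TPM) but a lower epithelial sum (959 against 1713 TPM). DMSO 15, among the libraries low in Pkhd1, had the lowest epithelial sum (628 TPM) and the highest stromal sum (3735 TPM), whereas DMSO 20 and DOX 19, which had 1285 and 1229 TPM of epithelial markers, were low in Pkhd1 and in number of genes detected. The part of cell mixture and of gene detection in the spread of Pkhd1 was not tested.

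**Figure D2:**
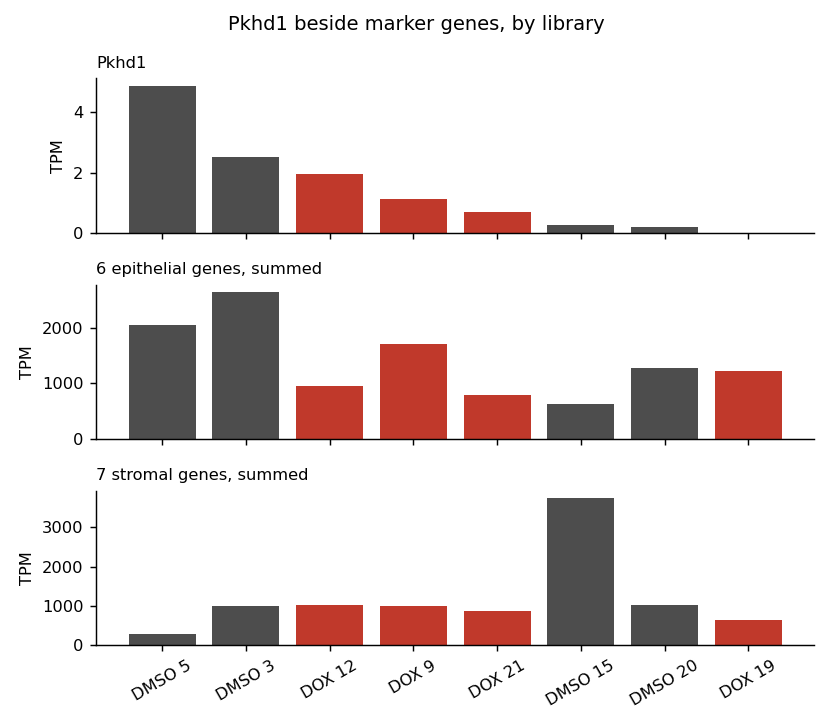
TPM (y axes, linear, from 0) of Pkhd1 and of the summed epithelial and stromal marker genes in each library, ordered by Pkhd1 (x axis; DMSO grey, DOX red). DMSO 5 and DMSO 3, with 4.88 and 2.52 TPM of Pkhd1, have the highest epithelial sums, and DMSO 15 has the most stromal RNA.

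Relative to Pkd2, Pkhd1 TPM ranged from 0 to 0.196 of the Pkd2 value. Recovery of the longer Pkhd1 transcript (12928 against 5212 bases) was not tested. The Pkhd1 to Pkd2 TPM ratio was 0.101, 0.196, 0.0105 and 0.00493 in DMSO 3, 5, 15 and 20, and 0.0588, 0.0692, 0 and 0.0323 in DOX 9, 12, 19 and 21. Every DOX value lay below the highest pair of DMSO values, and 3 of the 4 lay above the lowest pair. The mean log2 difference, after adding 0.01 TPM to Pkhd1, was -1.12 and became 0.66 without DOX 19, so even its sign rested on that library; without DMSO 20 and DOX 19 together it was -0.23, and it was not tested.

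The ER genes were more abundant. Dnajb11 (chromosome 16, 22857845 to 22879634), whose product works with BiP, had normalised counts of 17774, 15893, 18276 and 20804 in DMSO 3, 5, 15 and 20. In DOX 9, 12, 19 and 21 the values were 38004, 22871, 23347 and 21130. All 4 DOX libraries lay above all 4 DMSO libraries, and DOX 9 stood far above the other three. On the log2 scale DOX was higher by 0.53 (SE 0.251; 95% interval 0.04 to 1.03; unadjusted p = 0.0335; DESeq2 adjusted p = 0.873). By the exact two-sided permutation test p was 0.0286, the smallest that 4 against 4 libraries can give. Groups with DOX above DMSO without overlap occurred in 1.48% of all genes tested. Without DOX 9 the log2 fold change was 0.30 (DESeq2 adjusted p = 0.999), and without DMSO 20 and DOX 19 it was 0.68 (adjusted p = 0.643). The fold change was positive in every fit tried, and the adjusted threshold was reached in none.

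Ganab (chromosome 19, 8898057 to 8916742), the catalytic glucosidase II subunit, had normalised counts of 26723, 18743, 20909 and 14501 in DMSO 3, 5, 15 and 20, and 39953, 25599, 18665 and 25892 in DOX 9, 12, 19 and 21. DOX 9 was highest and DMSO 20 lowest, and the remaining libraries overlapped. For Ganab the log2 difference was 0.45 (SE 0.317; DESeq2 adjusted p = 0.999; exact permutation p = 0.286), and it was 0.21 without DOX 9 and 0.48 without DMSO 20 and DOX 19. Its partner subunit Prkcsh (chromosome 9, 22002988 to 22014245) had 24471, 15652, 20221 and 15296 in the DMSO libraries and 33436, 19330, 13236 and 18860 in the DOX libraries, in the same order. DOX 9 was again highest, and DOX 19 was lowest. Prkcsh differed by 0.17 on the log2 scale (SE 0.345; DESeq2 adjusted p = 0.999; exact permutation p = 0.771) and turned to -0.14 without DOX 9, whereas it was 0.27 without DMSO 20 and DOX 19.

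Sec63 (chromosome 10, 42761496 to 42832514), a partner of the translocon, varied least. It had 8442, 5735, 7869 and 9313 normalised counts in DMSO 3, 5, 15 and 20, and 10054, 8208, 9149 and 8118 in DOX 9, 12, 19 and 21. Apart from DMSO 5, all libraries lay close together. The log2 fold change of 0.18 (SE 0.207; 95% interval -0.22 to 0.59; DESeq2 adjusted p = 0.999; exact permutation p = 0.314) was 0.06 without DMSO 5 and 0.28 without DMSO 20 and DOX 19. The SD of its log2 values exceeded that of only 8.57% of genes, against 13.3% for Pkd2, 29.1% for Pkd1, 30.3% for Dnajb11, 36.6% for Prkcsh, 39.4% for Ganab, 42.0% for Dzip1l and 57.3% for Bicc1.

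The TPM ratio of the glucosidase II subunits to each other ran from 1.35 to 2.00 over all libraries. The Prkcsh to Ganab TPM ratio was 1.74, 1.59, 1.84 and 2.00 in DMSO 3, 5, 15 and 20, and 1.59, 1.44, 1.35 and 1.38 in DOX 9, 12, 19 and 21. The groups overlapped only between DMSO 5 (1.587) and DOX 9 (1.591), with means of 1.79 ± 0.175 and 1.44 ± 0.107 (SD, n = 4 each). With 1 transcript per gene the means were 1.21 in DMSO and 0.969 in DOX, because summing counts reads once for each annotated transcript (3 of Prkcsh, 2 of Ganab). The log2 difference of -0.31 stayed between -0.37 and -0.26 when each library was left out in turn; it was compared without a test.

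**Figure D3:**
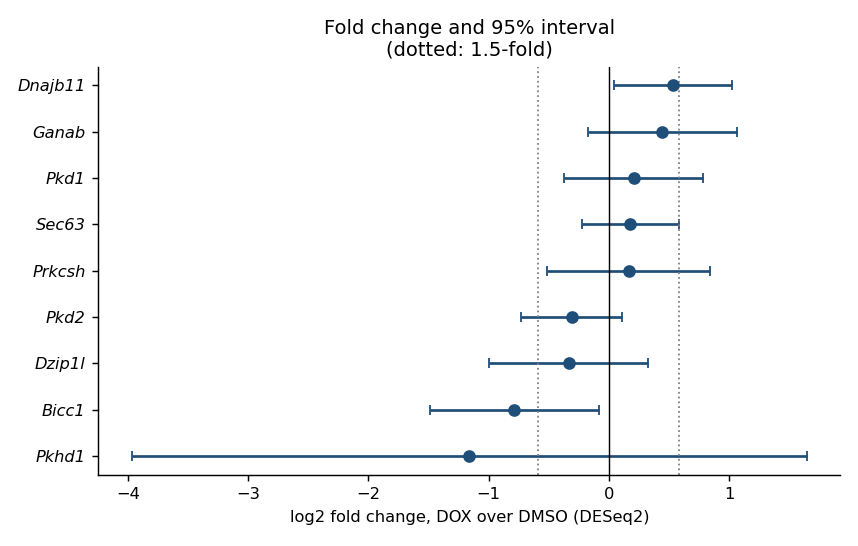
DESeq2 log2 fold change of each gene, DOX over DMSO (x axis; points), with its 95% interval (bars) and dotted lines at a 1.5-fold change. The intervals of Dnajb11 (0.04 to 1.03) and Bicc1 (-1.49 to -0.08) do not cross 0 before adjustment, and that of Pkhd1 spans -3.96 to 1.65.

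DOX 9 was the highest of the 8 libraries in all 4 ER members, which was the case in 11.4% of the 13127 genes that had both a DESeq2 p-value and a mean normalised count of at least 100. Other ER genes were read beside them from lists that were likewise chosen with earlier results known. Among 12 translocon and ER chaperone genes, 7 were highest in DOX 9, 8 fold changes were positive and 4 negative, the median log2 fold change was 0.37, and none was called. Hyou1, an ER chaperone related to the heat shock proteins, had the highest fold change of this list (log2 0.78; DESeq2 adjusted p = 0.999) and stood at 74.3 TPM in DOX 9 against 12.1 to 21.6 TPM elsewhere. BiP itself, encoded by Hspa5 and named here as the chaperone that Dnajb11 serves, had 472594 normalised counts in DOX 9 and 117702 to 199526 in the other libraries. The lowest fold change was that of Sec61g, a translocon subunit (log2 -0.39; adjusted p = 0.999 by DESeq2), which was highest in DMSO 15. Promoters were present for 9 of the 12 genes, and an ERSE match was found in those of Hspa5 and Dnajc3. Among the 9 genes of the glycan list it was found in Calr and Canx. ERSE matches were found in 0.119% of all promoter windows, and no link to the counts was tested. The state of the culture behind DOX 9 was not measured, and its part in the values of Dnajb11, Ganab and Prkcsh was not tested beyond the fits without it.

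**Figure D4:**
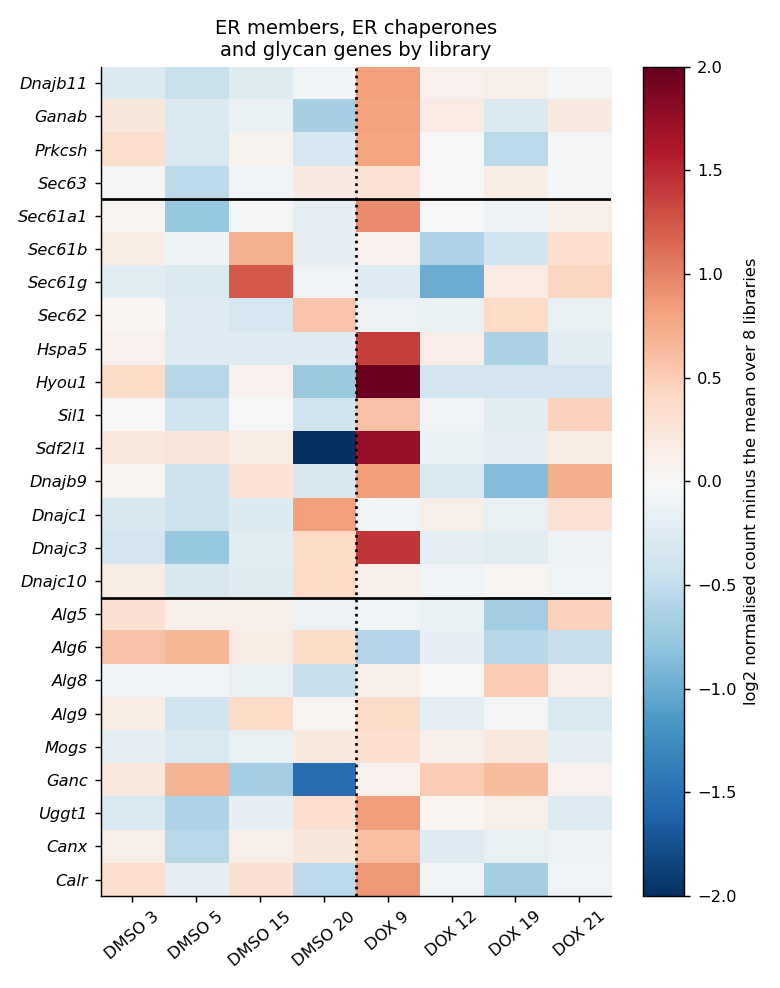
Colour map of log2 normalised count minus the mean over the 8 libraries (colour scale limited to 2 on either side), with libraries in columns, the 4 ER members in the top block, translocon and chaperone genes in the middle and glycan genes at the bottom. The column of DOX 9 is red in all 4 ER members and strongest in Hyou1, which stood at 74.3 TPM there.

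The ER glycan and glucosidase list holds some of the enzymes that build the glycan precursor (Alg5, Alg6, Alg8 and Alg9), the glucosidase genes Mogs and Ganc, the folding sensor Uggt1 and the lectin chaperones Canx and Calr. Of its 9 genes, 6 had positive and 3 negative fold changes (median log2 0.09), 5 were highest in DOX 9, and 1 was called, against 0.147% of all genes with an adjusted p. Alg6, a glucosyltransferase that adds the first glucose to the precursor, was lower in DOX. Its normalised counts were 1178, 1246, 871 and 1013 in DMSO 3, 5, 15 and 20, and 525, 704, 528 and 569 in DOX 9, 12, 19 and 21. The groups did not overlap, as in 0.971% of all genes tested with DOX below DMSO, and DOX differed by -0.89 on the log2 scale (SE 0.211; DESeq2 adjusted p = 0.0234; edgeR adjusted p = 0.999). The call was made in 6 of 14 alternative fits, where the adjusted p ran from 0.00693 to 0.999, and in 3 of 8 fits that left out a library, while the log2 fold change stayed between -0.995 and -0.81. The groups of Alg8, which adds the next glucose, did not overlap either, with 1187 to 1560 normalised counts in DMSO and 1614 to 2325 in DOX. Its log2 fold change was 0.38 (DESeq2 adjusted p = 0.967). Groups with DOX above DMSO without overlap occurred in 1.48% of all genes tested, and Alg8 was named after its values were seen. Ganc, a related glucosidase, had the highest fold change of the list (log2 0.45; DESeq2 adjusted p = 0.999), and it shares 386 and 209 exonic bases with Capn3 and Tmem87a.

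Bicc1 (chromosome 10, 70922830 to 71159690) encodes an RNA-binding protein whose loss gives cystic kidneys in mice. Its normalised counts were 5546, 4163, 4714 and 2388 in DMSO 3, 5, 15 and 20, and 2643, 3336, 2176 and 1591 in DOX 9, 12, 19 and 21. In 3 DMSO libraries Bicc1 lay above every DOX library, and DMSO 20 lay among the DOX libraries. Between the groups Bicc1 differed by -0.79 on the log2 scale (SE 0.358; 95% interval -1.49 to -0.08; unadjusted p = 0.0282; DESeq2 adjusted p = 0.845; exact permutation p = 0.0857). An unadjusted p under 0.05 with a lower value in DOX was found for 2.47% of all genes tested. Without DMSO 20 the log2 fold change was -0.98 (DESeq2 adjusted p = 0.171), the smallest adjusted p of any member in any fit, and without DMSO 20 and DOX 19 it was -0.92 (adjusted p = 0.349). Without DMSO 3 it was -0.62. Bicc1 shares 349 of 7441 exonic bases with the antisense gene 4930533K18Rik.

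Dzip1l (chromosome 9, 99629501 to 99670075), needed at the transition zone of cilia through which polycystins pass, had 1449, 1338, 1085 and 1305 normalised counts in DMSO 3, 5, 15 and 20. In DOX 9, 12, 19 and 21 it had 828.5, 1398, 1305 and 579. DOX 9 and DOX 21 lay below the DMSO libraries and the other two within them. Its log2 fold change came to -0.33 (SE 0.338; 95% interval -0.99 to 0.33; DESeq2 adjusted p = 0.999; exact permutation p = 0.286), while it was -0.13 without DOX 21 and -0.45 without DMSO 20 and DOX 19. DOX 9 and DOX 21 were also the libraries in which Pkd2 lay below the DMSO range.

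Partners of both proteins and ciliary traffic genes (10 genes, among them Anks3, Anks6, Invs and Nek8) had 2 positive and 8 negative fold changes with a median log2 value of -0.07, that of all genes tested being -0.07 as well, and none was called. The highest was Dzip1, a paralog of Dzip1l (log2 0.08; DESeq2 adjusted p = 0.999). Of 11 other cystic disease genes, 4 fold changes were positive and 7 negative (median log2 -0.07), and none was called. Cys1, which encodes the ciliary protein cystin, had the lowest (log2 -1.29; SE 1.42; DESeq2 adjusted p = 0.999). Like Pkhd1, Cys1 was highest in DMSO 5 (20.0 TPM) and had 0 counts in DOX 19. Ofd1, a basal body gene, had the highest (log2 0.53; adjusted p = 0.999 by DESeq2). Glis3, a transcription factor gene whose mutation gives cystic kidneys, was the 1 gene of this list with an unadjusted DESeq2 p under 0.05. Its log2 fold change was -0.997 (DESeq2 adjusted p = 0.526). Such a p with a lower value in DOX was found for 2.47% of all genes tested, and Glis3 was picked out after its value was seen.

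In order of level, the 3 ER luminal genes came first. Mean levels over the 8 libraries were 275 ± 88.6 TPM for Dnajb11, 234 ± 71.7 for Prkcsh and 147 ± 48.8 for Ganab (SD, n = 8). Sec63 followed at 33.7 ± 5.72 TPM, then Pkd2 at 25.82 ± 5.38 and Bicc1 at 25.79 ± 9.73. Pkd1 had 8.71 ± 2.09 TPM, Dzip1l 7.25 ± 2.27 and Pkhd1 1.45 ± 1.65. The transcripts of Pkd1 and Pkhd1, with 14170 and 12928 bases, are the longest of the members, and recovery by length was not tested. Some neighbours in this order did not differ beyond their spread: Pkd2 was higher than Bicc1 in 3 of 8 libraries, Pkd1 higher than Dzip1l in 5 and Dnajb11 higher than Prkcsh in 6. Each of the other pairs of neighbours kept its order in 8 of 8 libraries. With 1 transcript per gene, Dnajb11, Prkcsh and Ganab had 102, 78.2 and 73.1 TPM and the order stayed as it was, but Prkcsh was then higher than Ganab in only 5 of 8 libraries.

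**Figure D5:**
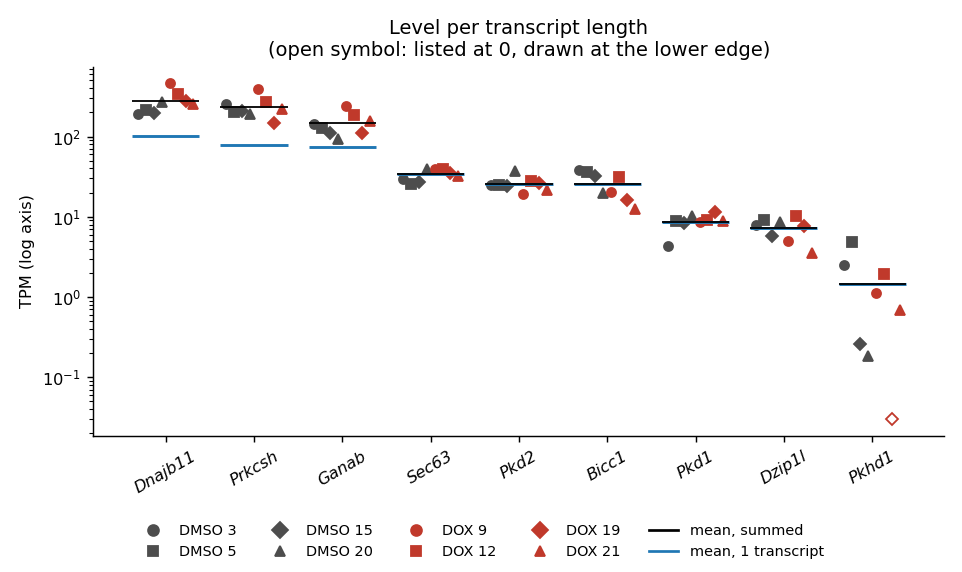
TPM (log axis) of each gene in each library (DMSO grey, DOX red), ordered by mean level, with black lines for the mean of summed transcripts and blue lines for 1 transcript per gene. Dnajb11, at 275 TPM, stands highest and Pkhd1, at 1.45 TPM, lowest, with DOX 19 listed at 0 and drawn as an open symbol at the lower edge.

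For the cilium membrane genes, the genes most alike across the 8 libraries were sought by Pearson correlation of log2(normalised count + 1) with the other 13247 genes of a mean normalised count of at least 100, with or without a p-value, as a description of libraries that share depth and cell mixture. Pkd1 was most like Atxn2 (r = 0.971), Klf7 (r = 0.970) and Mtcl1 (r = 0.960). Pkd2 was most like Epha3 (r = 0.957), Gyk (r = 0.955) and Tmem35 (r = 0.928). For Pkhd1 they were Clca1 (r = 0.996), Mia (r = 0.995) and Ccdc30 (r = 0.993). Each of these 9 relations stayed at 0.872 or more over the 6 libraries other than DMSO 20 and DOX 19. These are the first of 13247 ranked genes over few libraries, and by rank correlation only 1, 2 and 1 of the 3 named genes stayed among the first 3 for Pkd1, Pkd2 and Pkhd1.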

How the data were processed

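RNA was measured by poly-A selected SMART-Seq v4 libraries, which keep no strand, in 4 DOX and 4 DMSO cultures, placed in their group by title. The authors sequenced paired ends and deposited, for each RefSeq transcript of mm10, a whole-number count of reads; the submitters' processing notes name STAR, featureCounts and DESeq2, with versions not given in the sources used here. The FPKM deposited by the authors is that count divided by transcript length and library total, and it was used only to check transcript lengths. The TPM deposited by the authors rescales FPKM to a fixed sum. It was used for levels, ratios and marker sums, between genes and also between libraries and groups. No TPM value was tested between groups, and fold changes of single genes rest on counts. Whether cultures came from separate animals, and which libraries shared a lane, is not given in the sources used here, so p-values measure the spread between these cultures.

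Counts and TPM were summed by symbol (14 transcripts for the 9 members; 6 members have 1). Reads in several isoforms were counted for each, which inflates summed levels. In all 28 pairs, libraries differed far beyond sampling noise (chi-square over its degrees of freedom 328 to 1066), and each was counted as 1 sample. The main test was the DESeq2 1.42.0 Wald test (R 4.3.3; median-of-ratios size factors, no covariate, independent filtering at alpha 0.1, Benjamini-Hochberg adjustment), fitted over all genes. The edgeR 4.0.16 quasi-likelihood test stood beside it. Single genes were also compared by an exact two-sided permutation test of log2(normalised count + 1) over 70 assignments. Intervals are at 95% and cover counting and library spread as modelled.

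Members, gene lists and tests were chosen with earlier results of these data known, and the motifs after the values were seen. Motif patterns were entered by hand from general knowledge and searched on both strands of 8 members' promoters; they are given by name, and the capitals show the matched bases. From each list the text names called genes, genes without counts, and the lowest and highest fold change among genes with a mean normalised count of at least 100; Hspa5, Dnajc3, Calr, Canx, Pkd1l2, Pkd2l1, Alg8, Slc5a2 and Glis3 were added outside this rule, and a few genes that it or the marker lists hold are not reported here. For Pkd1, Pkd2 and Pkhd1 the 3 genes with the highest correlation are named. Gene positions are those of RefSeq on GRCm38.p6 (the assembly of mm10), and exon overlaps those of GENCODE on GRCm38. Summed TPM of other marker lists was at most 23.7 for proximal tubule, 12.4 for loop of Henle, 1.15 for endothelium, 28.7 for immune cells, 3.84 for urothelium and 47.9 for adrenal genes in any library. Alternatives were other scaling and filters, 1 transcript per gene, a covariate, another pseudocount and leaving out libraries.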

Additional observations from a re-analysis of the deposited data

Results flagged for a closer look

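In 2 of 18 groups of 4 libraries (9 genes in 2 groups, on the log2 scale), 1 library stood far from the other three by the gap to its nearest neighbour over the range of the group; chance flags about 1 in 20 such groups, or 0.9 of 18. Pkhd1 in DOX 19, with 0 counts, had a gap of 0.874 of the range of the DOX libraries. Dnajb11 in DOX 9, with 38004 normalised counts, had a gap of 0.830. DOX 19 is 1 of the 2 libraries with few detected genes, and DOX 9 was the highest library in all 4 ER members. The part of these libraries in the values was not tested beyond the fits that leave them out.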

How the results depend on the processing

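Of 125 alternative fits of the members' fold changes, 124 kept the direction and none reached the adjusted threshold; the lowest adjusted p was 0.171. The exception was Prkcsh, at -0.14 without DOX 9. The number of genes called, 25 by DESeq2, was 0 by edgeR, 16 with at least 10 counts in every library, 51 without DMSO 20 and DOX 19, 41 with low gene detection as a covariate, and 14 to 75 when each library was left out, lowest without DMSO 3 and highest without DMSO 15; it was also 48 without DMSO 20 and 38 without DOX 21. The cause of these shifts was not tested. Leaving out each library gave log2 fold changes of 0.03 to 0.31 for Pkd1, -0.41 to -0.20 for Pkd2, -1.67 to -0.36 for Pkhd1, 0.21 to 0.61 for Ganab, -0.14 to 0.35 for Prkcsh, 0.06 to 0.27 for Sec63, 0.30 to 0.63 for Dnajb11, -0.52 to -0.13 for Dzip1l and -0.98 to -0.62 for Bicc1. The Pkhd1 to Pkd2 log2 TPM ratio difference ranged from -2.001 to 0.66. With low gene detection as a covariate Pkhd1 was at -2.04, and with at least 10 counts in every library it was not tested. One transcript per gene gave 73.1, 78.2 and 102 TPM for Ganab, Prkcsh and Dnajb11, by construction. TMM in place of median-of-ratios scaling shifted the median of all genes by 0.0064 on the log2 scale, and a pseudocount of 0.5 in place of 1 kept the direction and side of the threshold of all 9 differences. No paired analysis was possible because the library numbers of the groups are not shared. Among members a count of 0 occurred for Pkhd1 alone, in DOX 19.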
